A study of Rattus norvegicus with 24 samples.

Results

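Genes that build ribosomes were examined in the livers of rats fed rotenone, a plant-derived inhibitor of mitochondrial complex I. The group held 38 genes of ribosome biogenesis and the nucleolus, which were listed by symbol, and all 38 were found among the 22093 genes that the array measured with a transcript cluster of their own symbol. A transcript cluster is a set of probes for the transcripts of a locus. Where a symbol had more than 1 cluster, the one with the highest mean over the 24 arrays stood for the gene.

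The animals were male RccHan Wistar rats, 7 to 8 weeks old when assigned to the groups, and the labels give them no allele and no agent other than rotenone. They ate untreated chow (control, 0 ppm) or chow with 400 ppm rotenone for 1, 3 or 14 days, and livers were taken at the end of that time. The 6 groups were control and rotenone on day 1, day 3 and day 14, with 4 livers each and 1 Rat Transcriptome Array per liver, although 5 animals had been assigned to each group. RNA came from whole liver tissue, so hepatocytes and the other cells of the organ were measured together. Levels are given as log2 of the deposited intensity plus 1. Changes are rotenone minus control of the same day on that scale, with the standard error of the fit after ±, and the words rose and fell are kept for genes with an adjusted p under 0.05 in limma, with Benjamini-Hochberg correction across the 68842 clusters measured.

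Ribosomes are assembled in the nucleolus. RNA polymerase I transcribes the long ribosomal RNA precursor, small nucleolar particles modify it at chosen bases, and a large set of assembly factors folds and cuts it and joins it with ribosomal proteins into the small and the large subunit. Liver uses this pathway for its high output of plasma proteins and enzymes, and its genes are known to respond to growth signals and to nutrient supply.

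In total 20 of the 38 genes rose after 1 day of rotenone, 0 fell and 18 did not pass the test, with a median change of 0.46. The share of members that rose was 52.6%, while 5.69% of all 22093 genes rose on that day. Of the 14917 genes at or above the median cluster mean, to which all 38 belonged, 8.4% rose. The members and the lists below were picked when earlier results of these data were already known. For that reason the shares of all genes, here and below, are given for description and cannot test enrichment. On day 3, 5 members rose and 0 fell (3.53% of all genes rose, and 5.11% of those at or above the median cluster mean), with a median change of 0.16. On day 14, 7 members rose and 0 fell (5.98% of all genes rose, and 8.72% of those at or above the median cluster mean), with a median of 0.26. The median change of all genes was -0.03 on day 1, 0.03 on day 3 and 0.01 on day 14. At an unadjusted p under 0.05 in limma, 29, 13 and 22 members were higher on days 1, 3 and 14, and 0 were lower on any of these days. The share of all genes at that unadjusted threshold was not counted, here or for the unadjusted counts below. Of all genes, 3.73%, 3.11% and 3.33% fell on the 3 days.

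**Figure D1:**
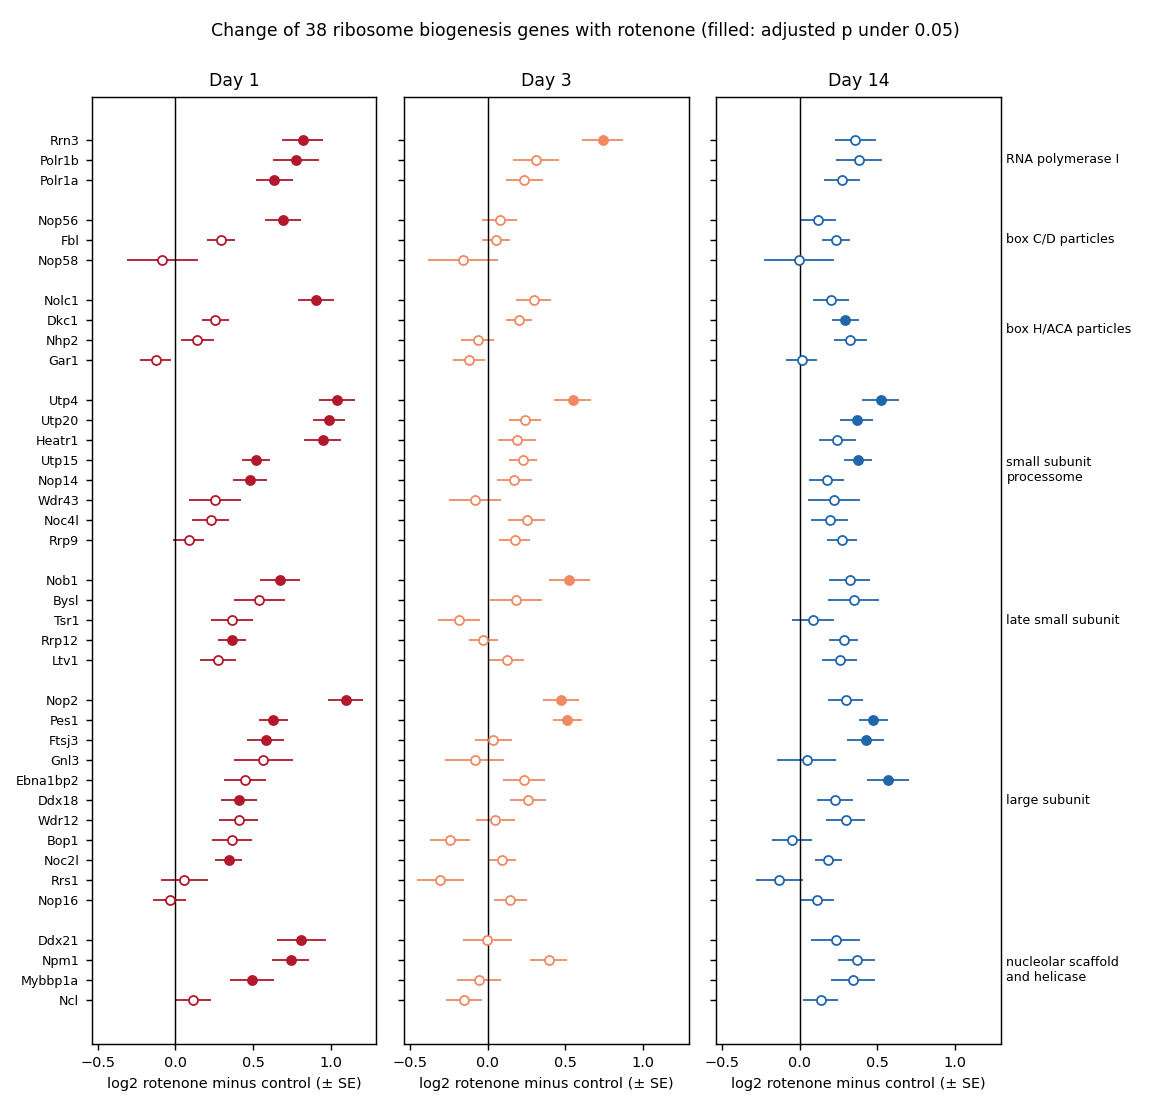
Change of each of the 38 genes with rotenone on day 1, day 3 and day 14, as log2 rotenone minus control (points) with its standard error (lines), ordered by role. Filled points passed an adjusted p under 0.05, which 20 genes did on day 1, 5 on day 3 and 7 on day 14, all to the right of 0.

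Promoter sequences were available from RefSeq (build GRCr8, 250 bases before to 50 after the start of a gene) for 35 of the members, all except Bop1, Wdr43 and Rrs1. They were searched on both strands for CACGTG, the E-box that MYC and related factors bind, and for CCGGAAG, a core of sites for ETS factors that cannot overlap it. The E-box was found in 14 of the 35 (40%), against 6.42% of all 33469 promoters and 7.02% of the 21851 of protein-coding genes. The ETS core was found in 15 (42.9%), against 8.75% and 10.7%, and 8 members held both, against 0.828% of all promoters. The share of members that rose on day 1 was 7 of 14 with the E-box and 13 of 21 without it, with median changes of 0.47 and 0.52. For the ETS core it was 6 of 15 with the letters and 14 of 20 without them, with medians of 0.37 and 0.54. The 4 windows printed here, 250 bases before the start of the gene read 5′ to 3′ on its own strand, show an E-box alone (Pes1), both motifs (Dkc1), the ETS core alone (Ddx21) and neither (Polr1b), with matches in capitals. They lie at chr14:83074096-83074345 on the plus strand, chrX:157751401-157751650 on the plus strand, chr20:31097239-31097488 on the minus strand and chr3:136786880-136787129 on the plus strand. Both ETS matches in Dkc1 read CTTCCGG because they lie on the opposite strand.
Pes1: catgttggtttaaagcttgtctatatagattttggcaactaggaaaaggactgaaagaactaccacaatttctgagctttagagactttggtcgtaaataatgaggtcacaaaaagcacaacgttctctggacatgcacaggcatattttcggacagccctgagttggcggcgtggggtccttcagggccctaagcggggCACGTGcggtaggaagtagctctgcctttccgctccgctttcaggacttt
Dkc1: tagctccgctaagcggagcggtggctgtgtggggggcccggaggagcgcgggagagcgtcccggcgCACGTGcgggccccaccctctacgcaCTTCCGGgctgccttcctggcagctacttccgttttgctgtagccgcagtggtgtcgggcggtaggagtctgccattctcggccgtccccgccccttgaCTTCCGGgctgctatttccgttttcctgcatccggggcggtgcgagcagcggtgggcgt
Ddx21: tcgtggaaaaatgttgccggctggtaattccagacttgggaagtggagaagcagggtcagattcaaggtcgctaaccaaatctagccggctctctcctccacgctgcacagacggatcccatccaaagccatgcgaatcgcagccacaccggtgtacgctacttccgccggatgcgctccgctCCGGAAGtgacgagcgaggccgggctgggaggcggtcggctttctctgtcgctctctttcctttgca
Polr1b: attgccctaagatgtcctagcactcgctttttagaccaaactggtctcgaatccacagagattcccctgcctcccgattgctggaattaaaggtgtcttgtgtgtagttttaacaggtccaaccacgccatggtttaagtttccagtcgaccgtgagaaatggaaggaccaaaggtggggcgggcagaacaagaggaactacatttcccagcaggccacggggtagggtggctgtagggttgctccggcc

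**Figure D2:**
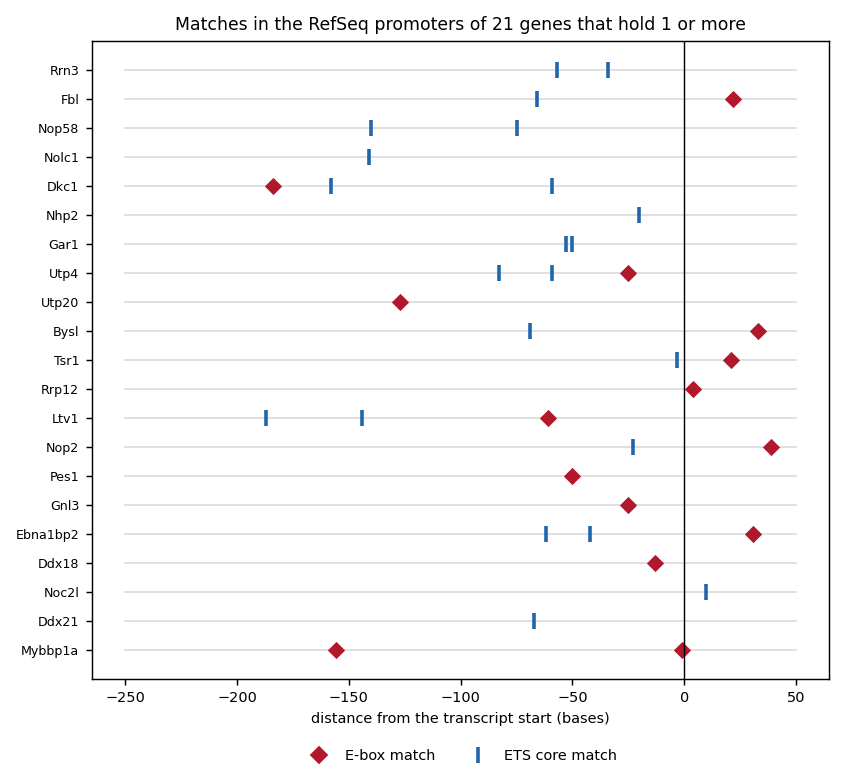
Distance from the transcript start (bases, x axis) of each E-box match (diamonds) and each ETS core match (bars) in the RefSeq promoters of the 21 members that hold at least 1. The start lies at 0 and the window runs from 250 bases before it to 50 after it. Of the 22 ETS matches, 16 lie within 100 bases before the start.

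The 3 members that act in transcription by RNA polymerase I, the subunits Polr1a and Polr1b and the initiation factor Rrn3, each rose on day 1, when 5.69% of all genes rose. Of 13 other genes of this polymerase and its factors 3 rose on that day, with a median change of 0.14 over the 13. Polr1a (chr4:105508305-105572272) encodes the largest subunit, which holds the catalytic site. Its level on day 1 was 7.38, 7.40, 7.45 and 7.66 in control livers and 7.95, 8.42, 8.07 and 8.00 in rotenone livers. The groups did not overlap, and the change was 0.64 ± 0.12 (limma, adjusted p = 0.00173). On day 3 the values were 7.66, 7.47, 7.58 and 7.78 in controls and 7.85, 7.94, 7.91 and 7.73 with rotenone, and on day 14 they were 7.58, 7.47, 7.25 and 7.77 against 7.71, 7.93, 7.75 and 7.77. Both later comparisons overlapped, with changes of 0.24 ± 0.12 and 0.27 ± 0.12 that did not pass. Polr1b, the next largest subunit, rose by 0.78 ± 0.15 on day 1 and stood at 0.31 ± 0.15 on day 3 and 0.38 ± 0.15 on day 14, neither of which passed.

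Rrn3 (chr10:2637016-2672338) is the factor that makes the polymerase competent to start on ribosomal DNA. It measured 9.99, 9.67, 10.12 and 9.94 in control livers of day 1 and 10.60, 10.69, 10.95 and 10.74 in rotenone livers (0.82 ± 0.13, limma adjusted p = 4.73e-04). The day 3 levels were 9.78, 9.77, 9.91 and 10.01 in controls and 10.62, 10.75, 10.57 and 10.49 with rotenone (0.74 ± 0.13, adjusted p = 0.00172). On both days every rotenone liver lay above every control. On day 14 the controls measured 10.11, 10.60, 10.28 and 9.90 and the rotenone livers 10.69, 10.74, 10.49 and 10.40, and control replicate 2 lay inside the rotenone range. The day 14 change of 0.36 ± 0.13 did not pass (adjusted p = 0.134). Rrn3 and Pes1 were the 2 members whose day 3 call held under all 34 alternatives tried.

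The small nucleolar particles changed unevenly. Box C/D particles carry the enzyme Fbl (fibrillarin, chr1:92597407-92606507), which adds methyl groups to ribosomal RNA, on a core that includes Nop56 and Nop58. Nop56 rose by 0.69 ± 0.12 on day 1 and was at 0.08 ± 0.12 on day 3 and 0.12 ± 0.12 on day 14. Nop58 had changes of -0.08 ± 0.23, -0.16 ± 0.23 and -0.01 ± 0.23 on the 3 days and passed on none. For Fbl the day 1 values were 9.37, 9.32, 9.46 and 9.68 in controls and 9.78, 9.76, 9.82 and 9.64 with rotenone. Only rotenone replicate 4 lay below the highest control, and the change of 0.29 ± 0.09 missed the threshold (limma, adjusted p = 0.0672). On day 3 Fbl measured 9.54, 9.42, 9.61 and 9.58 against 9.48, 9.67, 9.67 and 9.57, which overlap (0.06 ± 0.09). The day 14 levels were 9.26, 9.29, 9.39 and 9.19 in controls and 9.40, 9.61, 9.53 and 9.52 with rotenone. Those groups lay apart by a narrow margin without a call (0.23 ± 0.09, adjusted p = 0.159).

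Box H/ACA particles convert uridine to pseudouridine through the enzyme Dkc1 (dyskerin, chrX:157751651-157757796), held by Nhp2 and Gar1. Dkc1 measured 7.54, 7.53, 7.43 and 7.67 in controls of day 1 and 7.74, 7.83, 7.78 and 7.85 with rotenone (0.26 ± 0.08, limma adjusted p = 0.0908). After 3 days the levels were 7.65, 7.56, 7.57 and 7.51 in controls and 7.78, 7.83, 7.76 and 7.71 with rotenone (0.20 ± 0.08, adjusted p = 0.269). After 14 days the levels were 7.35, 7.56, 7.52 and 7.59 in controls and 7.72, 7.99, 7.73 and 7.75 with rotenone (0.29 ± 0.08, adjusted p = 0.0487). Every rotenone liver lay above every control of its day on all 3 days, but the test was passed on day 14 alone, and that call was lost in 25 of the 34 alternatives. Nhp2 (0.14 ± 0.11, -0.06 ± 0.11 and 0.32 ± 0.11) and Gar1 (-0.13 ± 0.10, -0.12 ± 0.10 and 0.01 ± 0.10) passed on no day. Nolc1, a chaperone that shuttles these particles, rose by 0.91 ± 0.11 on day 1, a 1.88-fold difference, and stood at 0.30 ± 0.11 and 0.20 ± 0.11 on the later days.

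The small subunit processome held 3 of the 5 largest rises of day 1. It is the large complex that packs and cleaves the precursor of the small subunit's RNA, and 5 of its 8 members rose on day 1, 1 on day 3 and 3 on day 14. Of all genes, 5.69%, 3.53% and 5.98% rose on these 3 days. Utp4 (chr19:51696437-51730323) belongs to the subcomplex that binds the nascent precursor at the outset. It measured 9.46, 9.67, 9.72 and 9.89 in controls of day 1 and 10.55, 10.74, 10.79 and 10.82 with rotenone, a 2.06-fold difference (1.04 ± 0.12, limma adjusted p = 1.15e-05). Day 3 gave 10.01, 9.78, 10.10 and 10.20 against 10.49, 10.65, 10.64 and 10.49 (0.55 ± 0.12, adjusted p = 0.00884). Day 14 gave 9.87, 10.05, 9.76 and 9.98 against 10.45, 10.72, 10.22 and 10.35 (0.52 ± 0.12, adjusted p = 0.0107). The groups did not overlap on any of the 3 days, and Utp4 and Pes1 were the 2 members that rose on every day. Among all genes, 1.21% rose on all 3 days.

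Utp20 (chr7:25022029-25103024), a very large scaffold protein of the processome, had its largest change on day 1. It measured 7.60, 7.79, 7.58 and 7.82 in controls of day 1 and 8.69, 8.72, 8.75 and 8.58 with rotenone, a 1.99-fold difference (0.99 ± 0.10, limma adjusted p = 4.67e-06). On day 3 it measured 7.75, 7.93, 7.89 and 8.03 against 8.13, 8.18, 8.31 and 7.94. There rotenone replicate 4 lay within the controls, and the change of 0.24 ± 0.10 did not pass. On day 14 it measured 7.69, 7.89, 7.70 and 7.92 against 7.93, 8.24, 8.20 and 8.31 (0.37 ± 0.10, adjusted p = 0.0453), with the lowest rotenone liver just above the highest control. Heatr1, a partner of Utp4 in the same subcomplex, rose by 0.95 ± 0.12 on day 1 and stood at 0.19 ± 0.12 and 0.24 ± 0.12 later. Utp15, also of that subcomplex, rose by 0.52 ± 0.09 on day 1 and by 0.38 ± 0.09 on day 14. Nop14, which sits in the core of the small subunit precursor, rose by 0.48 ± 0.11 on day 1. Wdr43 (0.25 ± 0.17), Noc4l (0.23 ± 0.12) and Rrp9 (0.09 ± 0.10) did not pass on day 1, and their later changes lay between -0.08 and 0.27.

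Of the 5 late factors of the small subunit, which act as the particle leaves the nucleolus and matures in the cytoplasm, 2 rose on day 1, 1 on day 3 and 0 on day 14. The shares of all genes that rose were 5.69%, 3.53% and 5.98%. Nob1 (chr19:52232543-52245824) is the nuclease that makes the final cut in the small subunit's RNA. It measured 7.81, 7.60, 8.03 and 7.90 in controls of day 1 and 8.60, 8.41, 8.52 and 8.51 with rotenone (0.67 ± 0.13, limma adjusted p = 0.00285). The day 3 levels were 7.95, 7.52, 7.85 and 7.90 against 8.29, 8.49, 8.39 and 8.14 (0.53 ± 0.13, adjusted p = 0.0256). The groups lay apart on both days. The day 14 levels were 7.81, 8.02, 7.91 and 7.69 against 8.13, 8.57, 8.07 and 7.93, where 1 rotenone liver lay within the controls and the change of 0.32 ± 0.13 did not pass. Rrp12, needed for export of the particles, rose by 0.37 ± 0.09 on day 1 and stood at -0.03 ± 0.09 on day 3 and 0.28 ± 0.09 on day 14.

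Bysl (bystin, chr9:20880341-20890092), an assembly factor of the small subunit precursor, measured 7.53, 7.48, 7.21 and 7.62 in controls of day 1 and 7.75, 8.29, 8.05 and 7.91 with rotenone. The groups lay apart, but the spread among rotenone livers was 0.23 (SD, n = 4), and the change of 0.54 ± 0.16 did not pass (limma, adjusted p = 0.0634). After 3 days the levels were 7.65, 7.58, 7.64 and 7.79 against 7.61, 8.04, 7.77 and 7.98, and on day 14 it measured 7.34, 7.26, 6.83 and 7.87 against 7.74, 7.83, 7.45 and 7.66. Both overlapped, and the controls of day 14 had the widest spread of all its groups, 0.43 (SD, n = 4). Tsr1 (0.37 ± 0.14) and Ltv1 (0.27 ± 0.11) did not pass on day 1 either, nor on the later days.

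Among the 11 members that assemble the large subunit, 5 rose on day 1, 2 on day 3 and 3 on day 14. Among all genes the shares were 5.69%, 3.53% and 5.98%. Nop2 (chr4:159618894-159630697), a methyltransferase that acts on the large subunit's RNA, had the largest change of all 38 members on day 1. It measured 8.95, 8.95, 8.93 and 9.15 in controls and 9.99, 10.30, 9.96 and 10.12 with rotenone, a 2.14-fold difference (1.10 ± 0.11, limma adjusted p = 4.34e-06). Day 3 gave 9.32, 9.20, 9.15 and 9.40 against 9.55, 9.84, 9.95 and 9.64 (0.47 ± 0.11, adjusted p = 0.0201). After 14 days the levels were 9.32, 9.10, 9.22 and 9.06 against 9.36, 9.76, 9.34 and 9.44 (0.30 ± 0.11, adjusted p = 0.157). Rotenone livers lay above all controls on each day, by a narrow margin on day 14, where the change did not pass.

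Pes1 (chr14:83074346-83090726), whose promoter window with an E-box is printed above, forms a complex with Bop1 and Wdr12 that processes the large subunit precursor. It measured 8.08, 8.01, 8.05 and 8.21 in controls of day 1 and 8.61, 8.62, 8.84 and 8.80 with rotenone (0.63 ± 0.09, limma adjusted p = 1.8e-04). On day 3 it measured 8.23, 8.12, 8.23 and 8.09 against 8.64, 8.82, 8.63 and 8.64 (0.51 ± 0.09, adjusted p = 0.00189). Day 14 gave 8.13, 8.11, 7.97 and 8.24 against 8.48, 8.77, 8.52 and 8.56 (0.47 ± 0.09, adjusted p = 0.00313). The groups lay well apart on every day. Its partners did not pass on any day, with Bop1 at 0.37 ± 0.13, -0.24 ± 0.13 and -0.05 ± 0.13, and Wdr12 at 0.41 ± 0.13, 0.05 ± 0.13 and 0.30 ± 0.13 on days 1, 3 and 14. On day 3 all 4 rotenone livers had less Bop1 than all 4 controls.

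Ebna1bp2 (chr5:137433534-137438100), an assembly factor of the large subunit precursor, was the member with the largest change on day 14. It measured 8.73, 8.34, 8.69 and 8.42 in controls of day 14 and 8.75, 9.34, 9.19 and 9.17 with rotenone, so that replicate 1 lay next to the controls (0.57 ± 0.14, limma adjusted p = 0.016). On day 1 it measured 8.72, 8.55, 8.86 and 8.57 against 9.01, 9.23, 9.15 and 9.10, which did not overlap but did not pass (0.45 ± 0.14, adjusted p = 0.0634). The day 3 levels were 8.87, 8.47, 8.82 and 8.79 against 8.74, 9.26, 8.99 and 8.90, which overlapped (0.23 ± 0.14). The methyltransferase Ftsj3 rose by 0.58 ± 0.12 on day 1 and by 0.43 ± 0.12 on day 14, with 0.04 ± 0.12 between them on day 3. The helicase Ddx18 (0.41 ± 0.12) and Noc2l (0.34 ± 0.09) rose on day 1 alone. Gnl3, the GTP-binding protein nucleostemin, was at 0.57 ± 0.19 on day 1 and did not pass, and Rrs1 (0.06 ± 0.15) and Nop16 (-0.04 ± 0.11) were near their controls.

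Of the 4 transcripts for nucleolar scaffold proteins and a helicase, 3 rose on day 1 and 0 on days 3 and 14. Over all genes 5.69%, 3.53% and 5.98% rose on days 1, 3 and 14. Ncl (nucleolin, chr9:94447559-94456083), which binds ribosomal RNA and chromatin of the ribosomal genes, was the exception. It measured 13.51, 13.61, 13.69 and 14.01 in controls of day 1 and 13.94, 13.84, 13.90 and 13.60 with rotenone. The ranges overlapped, and the change was 0.12 ± 0.11. After 3 days the levels were 13.61, 13.78, 13.63 and 13.66 against 13.55, 13.55, 13.59 and 13.38, so that all 4 rotenone livers lay below the controls without passing the test (-0.15 ± 0.11). On day 14 it measured 13.38, 13.51, 13.48 and 13.70 against 13.44, 13.71, 13.62 and 13.84, with overlap (0.14 ± 0.11). Ddx21, a helicase that couples transcription and processing of ribosomal RNA and whose promoter holds the ETS core alone, rose by 0.81 ± 0.16 on day 1 and was at 0.00 ± 0.16 on day 3 and 0.23 ± 0.16 on day 14. Mybbp1a, a nucleolar protein that also binds transcription factors, rose by 0.50 ± 0.14 on day 1, a call that was lost in 20 of the 34 alternatives.

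Npm1 (nucleophosmin), the protein that surrounds the nucleolar core as a scaffold, measured 12.39, 12.43, 12.58 and 12.54 in controls of day 1 and 13.24, 13.19, 13.34 and 13.13 with rotenone (0.74 ± 0.12, limma adjusted p = 4.22e-04). Day 3 gave 12.45, 12.41, 12.43 and 12.38 against 12.87, 12.99, 12.77 and 12.62, and the groups lay apart although the test was not passed (0.39 ± 0.12, adjusted p = 0.0732). The day 14 levels were 12.30, 12.47, 12.92 and 12.46 against 12.64, 13.05, 12.94 and 12.99, where control replicate 3 lay among the rotenone livers (0.37 ± 0.12, adjusted p = 0.082). These values come from a cluster whose identifier places it on chromosome X, while RefSeq has Npm1 at chr10:18245739-18255913 in GRCr8, and whether its probes read the gene or a near-identical copy is uncertain. The cluster that the array places on chromosome 10 gave 0.57 ± 0.10 on day 1 (adjusted p = 0.00118), 0.29 ± 0.10 on day 3 and 0.33 ± 0.10 on day 14, with a correlation of 0.949 between both over the 24 arrays. Another 4 members, Ebna1bp2, Heatr1, Nhp2 and Rrn3, also had 2 clusters, which correlated at 0.987, 0.998, 0.932 and 0.946 across arrays.

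**Figure D3:**
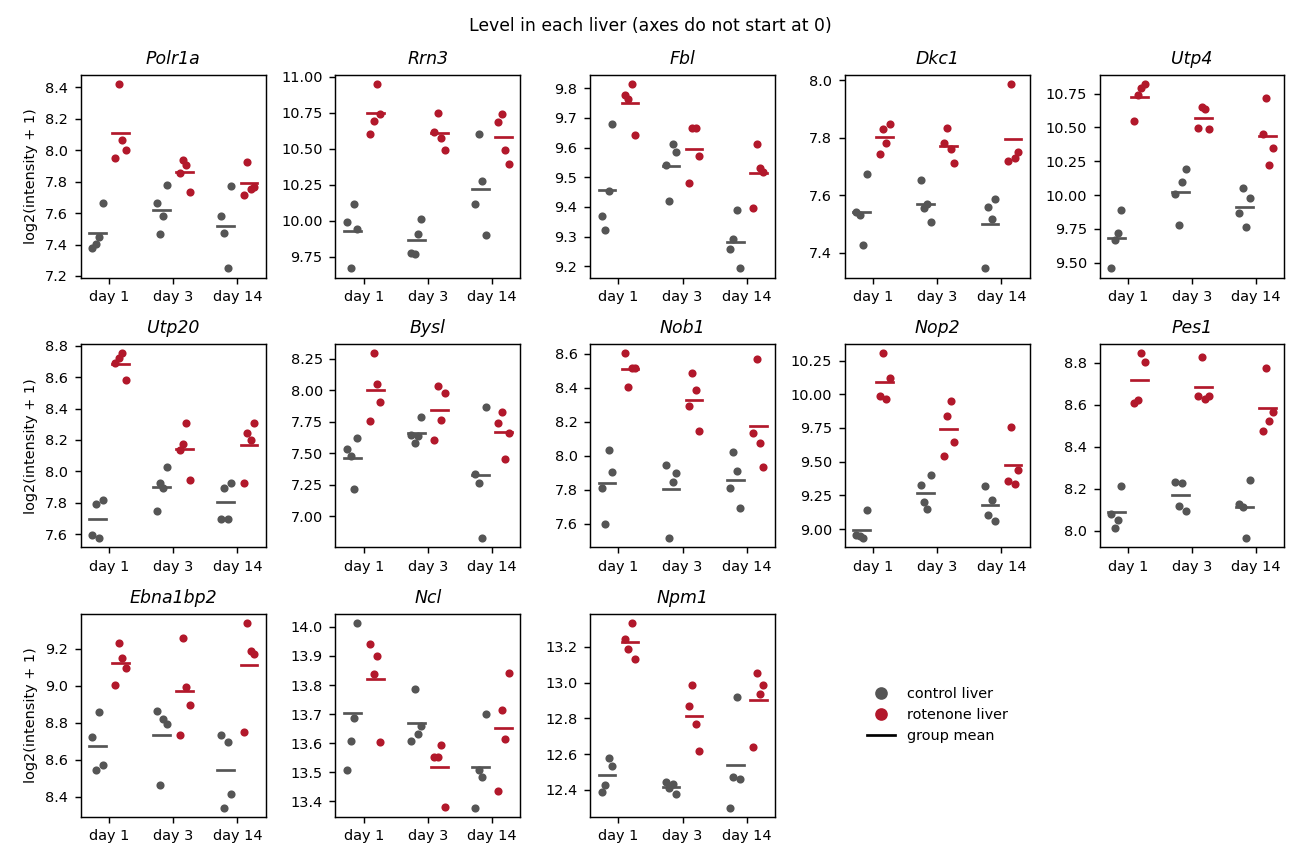
Level of 13 members in each liver (points), as log2(intensity + 1), for control and rotenone livers on days 1, 3 and 14, with group means as lines and 4 livers per group. Axes differ between genes and do not start at 0. On day 1 the groups of Nop2, Utp20 and Utp4 lie far apart, while those of Ncl overlap.

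Over all members, every rotenone liver lay above every control in 25 of 38 on day 1, 8 on day 3 and 9 on day 14, against 10.4%, 9.27% and 9.47% of all genes. Every rotenone liver lay below every control in 0, 2 and 0 members, the 2 being Ncl and Bop1, against 8.38%, 7.41% and 5.95% of all genes. Changes of the members that did not pass ran from -0.13 to 0.57 on day 1, from -0.30 to 0.39 on day 3 and from -0.13 to 0.38 on day 14. Of them, 15 of 18, 21 of 33 and 28 of 31 were above 0. The share of all genes above 0 was not counted, and their median changes were -0.03, 0.03 and 0.01. By number of days, 2 members rose on 3 days, 6 on 2 days, 14 on 1 day and 16 on none. The 16 were Fbl, Nop58, Nhp2, Gar1, Wdr43, Rrp9, Noc4l, Bysl, Ltv1, Tsr1, Bop1, Wdr12, Gnl3, Nop16, Rrs1 and Ncl. The change was above 0 on all 3 days in 25 members, and how many of all genes share this was not counted.

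The mean of the 38 members in each liver describes how the livers of a group differed. It was 8.34 ± 0.11 (SD, n = 4) in controls of day 1 and 8.81 ± 0.06 with rotenone, 8.43 ± 0.08 and 8.57 ± 0.10 on day 3, and 8.29 ± 0.12 and 8.54 ± 0.12 on day 14. Rotenone livers of day 1, at 8.76, 8.85, 8.88 and 8.76, all lay above their controls, at 8.25, 8.27, 8.33 and 8.49. On day 3 rotenone livers, at 8.48, 8.67, 8.65 and 8.49, overlapped with controls, at 8.43, 8.32, 8.48 and 8.49. On day 14 the rotenone livers were at 8.48, 8.71, 8.45 and 8.52 and the controls at 8.24, 8.33, 8.17 and 8.44, so that rotenone replicate 3 lay just above control replicate 4. Rotenone day 14 replicate 2 stood apart, with the highest value of its group in 33 of the 38 members, and it exceeded all controls of its day in 31 members, against 15, 16 and 17 for the other livers of the group. Without that liver 1 member rose on day 14 in place of 7. The count was 3 without rotenone day 14 replicate 3 or 4 and 4 without control day 14 replicate 1 or 2, and 0 members rose when the fit held the 8 arrays of day 14 and no others. None of the 7 calls of day 14 was kept in all 34 alternatives, while 15 of the 20 calls of day 1 and 2 of the 5 calls of day 3 were. On day 3 the count was 3 in place of 5 without control day 3 replicate 2, rotenone day 3 replicate 2 or rotenone day 3 replicate 3.

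**Figure D4:**
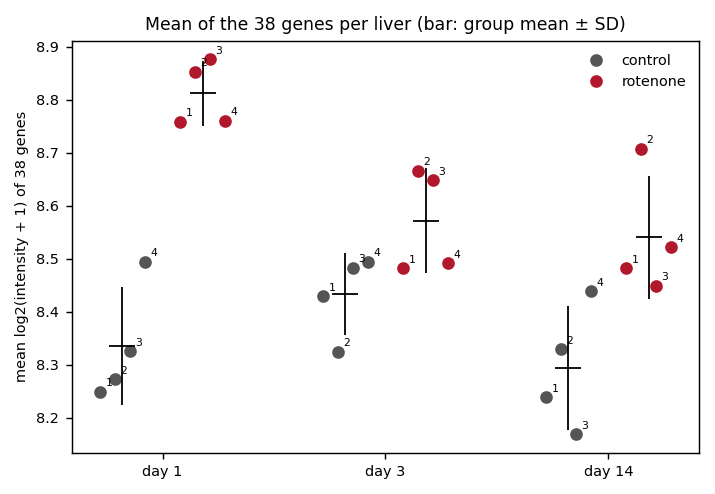
Mean log2(intensity + 1) of the 38 genes in each liver (points, labelled by replicate number), with the group mean and SD (black bars, n = 4 per group), for control and rotenone on days 1, 3 and 14. Rotenone livers of day 1 lie between 8.76 and 8.88, all above the controls of that day, and rotenone replicate 2 of day 14 lies highest in its group at 8.71.

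The change on day 1 was compared with the change on the later days by contrasts of the contrasts, since a call on 1 day and none on another shows no difference by itself. The change on day 14 was lower than that on day 1 in 4 members and higher in 0 (0.928% of all genes had a lower and 1.24% a higher change). The 4 were Nop2 (-0.80 ± 0.16, limma adjusted p = 0.016), Nolc1 (-0.71 ± 0.16, adjusted p = 0.035), Heatr1 (-0.71 ± 0.17, adjusted p = 0.047) and Utp20 (-0.62 ± 0.15, adjusted p = 0.041). From day 1 to day 3 it became lower in Utp20 alone (-0.75 ± 0.15, limma adjusted p = 0.045, with 0.127% of all genes lower). The median difference of the members was -0.34 with 34 of 38 below 0, and that of all genes was 0.04. At an unadjusted p under 0.05 in limma 17 members were lower and 0 higher. For day 14 against day 1 the members' median difference was -0.17 with 30 of 38 below 0, against 0.04 over all genes. There 11 members were lower and 0 higher at the same unadjusted threshold. Between day 3 and day 14 the difference passed in 0 members (0.0226% of all genes had a higher and 0.00905% a lower change), with 3 higher and 0 lower at an unadjusted p under 0.05 in limma. A joint test of any difference among the days passed for Nop2, Utp20 and Heatr1 (1.41% of all genes). These calls depend on single livers. Leaving out 1 liver reduced the 4 calls of day 14 against day 1 to 1 or 2 in 16 of 24 cases, all except control day 1 replicate 4, control day 3 replicates 1 and 4, control day 14 replicate 3, rotenone day 1 replicate 4 and rotenone day 3 replicates 1, 3 and 4. The call of Utp20 for day 3 against day 1 was lost in 20 of 24 cases, all except control day 14 replicate 4, rotenone day 1 replicate 4 and rotenone day 14 replicates 1 and 4.

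Control livers were compared between days to see whether the members drifted without rotenone. Days of feeding and age of the animals went together in this comparison. Between day 1 and day 3 of control feeding 0 members and 0% of all genes passed in either direction, and between day 1 and day 14 it was 0 members and 0.177% of all genes, all lower. At an unadjusted p under 0.05 in limma 5 members were higher in day 3 controls than in those of day 1. They were Rrs1 (0.34 ± 0.15), Utp4 (0.33 ± 0.12), Heatr1 (0.30 ± 0.12), Nolc1 (0.29 ± 0.11) and Nop2 (0.27 ± 0.11). All except Rrs1 rose with rotenone on day 1, and a lower control on day 1 enters both that change and its difference from day 3. On day 14 1 member, Rrn3 (0.29 ± 0.13), was higher and 1, Nhp2 (-0.33 ± 0.11), lower. The median difference of the members was 0.10 for day 3 and -0.07 for day 14. Control day 1 replicate 4 had the highest value of its group in 26 members and control day 14 replicate 4 in 24.

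Of 147 other genes of the same pathway, 30 rose and 1 fell on day 1, 10 rose and 1 fell on day 3, and 28 rose and 0 fell on day 14 (median changes 0.20, 0.11 and 0.21). The shares of all genes that rose, 5.69%, 3.53% and 5.98%, are the background for these counts and for the smaller lists below. With only the arrays of each comparison 11, 3 and 6 of the 147 rose. The day 1 count was 17 without control replicate 1 of that day and the day 14 count 17 without rotenone replicate 2, while the day 3 count was 4 without control replicate 1, 4 without control replicate 2 and 5 without rotenone replicate 2. Nop53, which escorts the large subunit precursor to the exosome, rose on all 3 days, by 0.96 ± 0.15, 0.89 ± 0.15 and 1.10 ± 0.15. The polymerase I subunit Polr1e also rose on each day, by 0.72 ± 0.15, 0.61 ± 0.15 and 0.65 ± 0.15, as did Gtf3a (0.63 ± 0.13, 0.55 ± 0.13 and 0.86 ± 0.13), a factor for transcription of the small ribosomal RNA by polymerase III. In the 13 other genes of polymerase I and its factors, 2 rose on day 3 and 2 on day 14, and those named here are Taf1d at 0.50 ± 0.11 on day 1, Polr1h at 0.54 ± 0.13 on day 3 and Ubtf, an architectural factor of the ribosomal genes, at 0.31 ± 0.09 on day 14.

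In the other 43 genes of small subunit assembly 7, 3 and 5 rose, led by Utp14a (0.87 ± 0.12) and Nop9 (0.60 ± 0.09) on day 1, Utp14a (0.64 ± 0.12) and Aatf (0.52 ± 0.13) on day 3, and Imp3 (0.84 ± 0.16) and the acetyltransferase Nat10 (0.73 ± 0.11) on day 14. Utp6 fell on day 3 (-0.37 ± 0.10). In the other 51 measured genes of large subunit assembly 13, 2 and 9 rose, among them Sdad1 (0.73 ± 0.11) on day 1, Wdr74 (0.46 ± 0.12) on day 3 and Eif6 (0.84 ± 0.15), which keeps the large subunit from joining too early, on day 14. Wdr18 fell on day 1 (-0.43 ± 0.09).

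The RNA exosome, which trims and degrades processing remnants, had 1, 2 and 6 of its 14 genes higher on days 1, 3 and 14, with Exosc5 (0.56 ± 0.12, 0.61 ± 0.12 and 0.55 ± 0.12) on each day, Exosc3 (0.44 ± 0.10) on day 3 and Exosc8 (0.62 ± 0.13) on day 14. Of 10 assembly factors and further proteins of small nucleolar particles 1, 0 and 3 rose, with Nop10 (0.55 ± 0.15) on day 1 and Znhit6 (0.66 ± 0.12) and Snu13 (0.35 ± 0.10) on day 14. Of the 16 measured genes of RNA polymerase III 5, 1 and 3 rose, with Polr3b (0.68 ± 0.09) on day 1 and Polr3c (0.38 ± 0.11) on day 14.

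**Figure D5:**
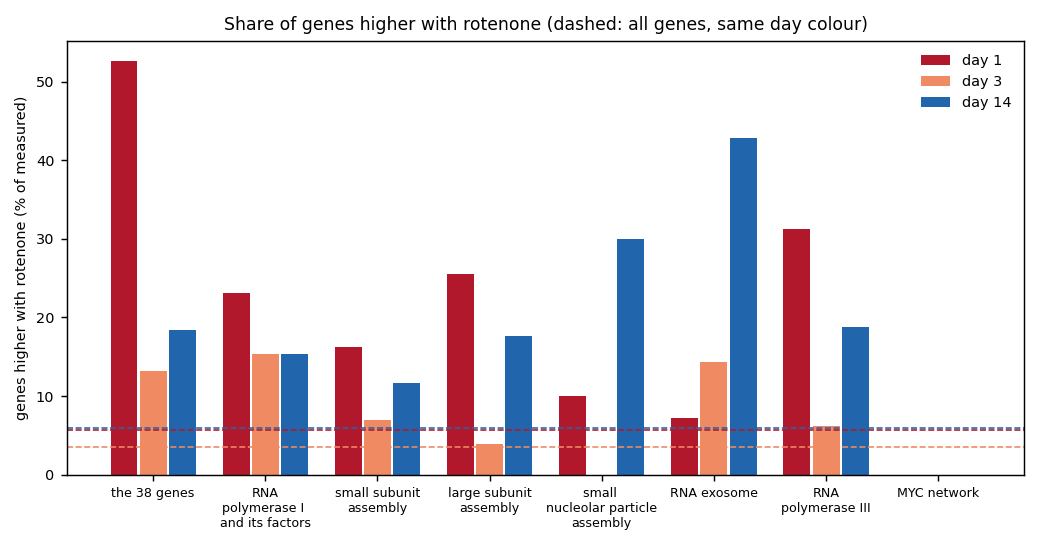
Share of genes that were higher with rotenone at an adjusted p under 0.05 (y axis, % of measured genes) in the 38 members and in 7 lists of related genes, on day 1, day 3 and day 14. Dashed lines give the share among all genes on the same day, 5.69%, 3.53% and 5.98%. The 38 genes reach 52.6% on day 1, and the RNA exosome has its highest bar on day 14.

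MYC is a transcription factor that is known to raise ribosome biogenesis genes, and 10 genes of its network were measured. None of the 10 rose on any day, and Myc fell on day 14. Its mean was 7.60 ± 1.21 (SD, n = 4) in controls of day 14, with a range from 6.04 to 8.92, and 6.07 ± 0.17 with rotenone, with a range from 5.83 to 6.23. The groups overlapped, the change was -1.52 ± 0.44 (limma, adjusted p = 0.049), and the call was lost in 23 of the 34 alternatives. On day 1 the change of Myc was -0.34 and did not pass. The part of MYC in the changes of the members was not tested.

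Markers of some other cells of the liver moved on the same days, and in whole tissue a shift in the number of such cells and a change of RNA per cell cannot be told apart. On day 1, 6 of 12 markers of sinusoidal endothelium rose, 3 of 12 of macrophages and 1 of 10 of lymphocytes, and 0 of these fell. Of all genes, 5.69% rose and 3.73% fell on that day. Of 12 stellate cell and fibroblast, 8 bile duct and 7 erythroid markers 0 passed on day 1, with median changes of 0.17, -0.17 and -0.23. The summed linear intensity of the endothelial markers was 21436 to 32563 in controls and 29170 to 51540 in rotenone livers, that of the macrophage markers 14462 to 27116 and 23693 to 33999, and that of the lymphocyte markers 1620 to 2438 and 2666 to 3755. Median changes on day 1 were 0.49 for endothelial, 0.56 for macrophage and 0.07 for lymphocyte markers, and a linear sum rests mostly on the brightest genes of a list. Among lymphocyte markers Cd3d, Cd3e and Ms4a1 stood at or below the median negative control probe set in controls of day 1. The part of these cells in the rise of the members was not tested. Of 11 hepatocyte markers 1 rose and 0 fell on day 1, with sums of 5420800 to 5574200 and 5419800 to 5584600. None of the 11 lay at or below the median negative control probe set in any group. Their sums were far above those of the other lists, and whether so bright a signal still follows a change in amount was not tested.

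Genes of dividing cells moved the other way on the same days. Of 10 such genes 7 fell on day 1, 10 on day 3 and 3 on day 14, and 0 rose. Of all genes 3.73%, 3.11% and 3.33% fell on these days, the background for all falls with rotenone given here, and 5.98% rose on day 14. Their level in controls was itself lower on day 14, when 8 of the 10 were below controls of day 1 (limma, adjusted p under 0.05, median difference -1.23). At or below the median negative control probe set lay 3 of the 10 in rotenone livers of day 3 (Aurkb, Cdk1 and Top2a), 2 in controls of day 14 (Aurkb and Cdk1) and 4 in rotenone livers of day 14, where Ccnb1 and Top2a joined them. Their summed intensity was 2004 to 7084 in controls of day 1 and 885 to 1317 with rotenone. On day 3, 7 of 12 stellate cell and fibroblast markers and 3 of 7 erythroid markers fell, and on day 14 it was 6 and 4, together with 3 of 12 macrophage markers, 1 endothelial and 1 hepatocyte marker, while 1 bile duct and 1 endothelial marker rose. The erythroid sums overlapped on both days, at 2314 to 4025 in controls and 1429 to 3138 with rotenone on day 3. On day 14 they were 1480 to 2477 and 1463 to 3287, and the stellate sums were 12610 to 14543 and 5758 to 9270. Lum (rotenone, days 3 and 14), Klf1 (control, day 14) and Hbb (rotenone, day 14) lay at or below the median negative control probe set.

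Array medians lay between 28.9 and 35.5 on the linear scale. The median negative control probe set lay between 5.01 and 5.43 on the log2 scale, depending on the array, and the group means of 0 members were below it. In 28 members at least 1 group mean lay below 8.95, the highest 95th percentile of negative control probe sets on any array, and how far background compresses their changes was not tested. The means of the members over all arrays ran from 6.45 to 13.65. The share of higher among all calls on day 1 depended on the scale, at 60.4% as deposited and 76.6% after each array was centred on its median, when 26 members rose and 7.09% of all genes.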

How the data were processed

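Liver RNA of 24 rats was hybridised to Rat Transcriptome Arrays. The authors corrected the scans for GC content, transformed the signal space and summarised probes with RMA. The versions are not given in the sources used here. The deposited intensity values are linear, and they were taken as log2 of the value plus a pseudocount of 1. Of 70580 features, 1738 control probe sets were set aside. Of the 68842 transcript clusters, 23446 carried 1 symbol, 505 several and 44891 none. Arrays have no read depth, and their number limits the precision.

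Means of the 6 groups were fitted to all 24 arrays with limma 3.58.1 in R 4.3.3 (two-sided moderated tests, Benjamini-Hochberg over all clusters, threshold 0.05). In simulated data 50.5%, 89% and 100% of changes of 1.5, 2 and 4-fold were recovered on day 1, with 55.5%, 87% and 98.5% for day 3 and 48.5%, 87% and 99.5% for day 14, and false calls made up 6.45%, 6.77% and 5.05% of all calls on these days. The simulation used independent normal noise and added rises alone, to 200 clusters per fold, all at or above the median cluster mean. In the livers far more genes were called and in both directions, so these rates need not hold there. The members and lists were chosen with earlier results of these data known. Per-liver values are given for the 3 largest rises and falls of each day and for Fbl, Ncl, Npm1, Dkc1, Nop2, Bysl, Polr1a and Rrn3. Other pathway genes are named for up to 2 rises and 2 falls per list and day, with Myc added. Of 151 such genes 147 were used here. Replicate numbers were not used to pair the livers in the main fit. In 34 alternatives, 24 of which left out 1 liver each, the pseudocount, filter, variance prior, array weights, normalization, scaling, block, arrays, clusters and choice of cluster were varied.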

Additional observations from a re-analysis of the deposited data

Results flagged for a closer look

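Single livers far from the other 3 of their group (Dixon's test) were found in 11 of 228 groups of a member and a condition, 4.82%, where chance gives about 1 in 20. High values were Ddx18 at 8.28 and Dkc1 at 7.99 in rotenone day 14 replicate 2, Ftsj3 at 9.05 and Utp15 at 8.84 in rotenone day 1 replicate 3, Gar1 at 6.67 in rotenone day 3 replicate 3, Pes1 at 8.82 in rotenone day 3 replicate 2 and Nop2 at 9.15 in control day 1 replicate 4. Low values were Bop1 at 6.24 in control day 14 replicate 3 (the next at 6.82), Bop1 at 6.63 and Wdr12 at 7.61 in rotenone day 3 replicate 1, and Nolc1 at 8.02 in control day 3 replicate 2.

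The change with rotenone differed between days in 4 members and 2 related genes by limma's test of the difference. From day 1 to day 14 it was lower by -0.80 in Nop2 (1.10 to 0.30), by -0.71 in Nolc1 (0.91 to 0.20), by -0.71 in Heatr1 (0.95 to 0.24) and by -0.62 in Utp20 (0.99 to 0.37), and for Utp20 by -0.75 from day 1 to day 3 (0.99 to 0.24). The polymerase III subunit Polr3b changed by 0.68 on day 1 and 0.11 on day 14, a difference of -0.57 ± 0.13 (adjusted p = 0.0317). The exosome subunit Exosc8 went the other way, from -0.31 on day 1 to 0.62 on day 14, a difference of 0.93 ± 0.18 (adjusted p = 0.0135).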

How the results depend on the processing

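No member was called in the opposite direction under any alternative. The count of members that rose on day 1 (20) lay between 15 with only the 8 arrays of that day and 27 with clusters of 1 symbol alone, and between 15 and 22 with 1 liver left out (median change 0.43 to 0.50). On day 3 the count (5) was 3 after array-median centring and 2 with only the arrays of that day, and 3 to 6 with 1 liver left out (median 0.11 to 0.18). On day 14 it (7) was 0 with only the arrays of that day and 11 with clusters of 1 symbol alone, fewer clusters being adjusted over, and 1 to 8 with 1 liver left out (median 0.19 to 0.31). The count of lower changes on day 14 than on day 1 (4) was 1 after centring and 1 with only the arrays compared, and 1 to 4 with 1 liver left out. For day 3 against day 1 (1) it was 2 with clusters at or above the median mean, 2 with clusters of 1 symbol alone, 0 with array weights, 0 with only the arrays compared and 0 to 1 with 1 liver left out. Except where a setting tests fewer clusters or arrays, the cause was not tested. Same-numbered livers shared little of their deviation in most pairs (60 pairs, correlations from -0.19 to 0.27, median -0.002, 11 over 0.1). The highest value was between control replicates 4 of day 1 and day 14. Of 24 livers, 10 were closest to their own number, and the count that chance gives was not computed. With the replicate number as a block the counts were 20, 5 and 6 on days 1, 3 and 14, 4 for day 14 against day 1 and 0 for day 3 against day 1. For other results, leaving out a liver weakened 173, strengthened 16 and moved 5 values while 2758 stayed, and the other alternatives weakened 38, strengthened 40 and moved 5 while 1147 stayed. Other pathway genes that rose numbered 11, 3 and 6 on days 1, 3 and 14 with only the arrays compared, against 30, 10 and 28. On day 3 it was 5 after array-median centring and 21 with clusters of 1 symbol alone, and with 1 liver left out it ran from 17 to 33, 4 to 11 and 17 to 28 on the 3 days.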
